A study of Mus musculus with 12 samples.

Results

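The genes described here are 51 members of the TGF-beta and BMP signalling family, picked by gene symbol. They comprise ligands and their latency proteins, receptors, Smads, secreted antagonists, Id targets, and the pair Tgfbi and Bmp1. They were taken from the 18539 genes that appear in any of 3 expression tables, 1 table per cell type. All 51 are listed for hepatocytes and for adipocytes, and 48 are listed for C2C12 cells, whose table does not list Bmp7, Gdf10 and Inhbe. The study asked how vitamin D acts together with olanzapine, an atypical antipsychotic drug associated with dyslipidemia, in cells of metabolic tissues. Each cell type received 4 treatments lasting 36 h in total. These were calcifediol (10 µM) for 24 h followed by olanzapine (1 µM) and calcifediol for 12 h, calcitriol (0.1 µM) for 24 h followed by olanzapine and calcitriol for 12 h, vehicle for 24 h followed by olanzapine for 12 h, and vehicle throughout. The vehicle was DMSO. In what follows, "with calcifediol" and "with calcitriol" refer to the co-treated libraries, which also received olanzapine.

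Calcifediol is the circulating 25-hydroxylated form of vitamin D3 and calcitriol is the active 1,25-dihydroxylated form, which is the ligand of the vitamin D receptor. Primary hepatocytes came from livers of male C57BL6/J mice aged 6 to 8 weeks. Primary adipocytes were differentiated in culture from preadipocytes in the subcutaneous fat of neonatal C57BL6/J pups. C2C12 is an established mouse myoblast line, here differentiated into myotubes for 5 days in 2% horse serum, and its values therefore describe a single line. Each condition had 1 library of poly(A) RNA, so there were 12 libraries with 15641434 to 19348338 counts each and no replicate cultures. Exact 95% intervals given with ratios cover counting error only.

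Each cell type carried its own markers. Hepatocyte markers such as Alb summed to 73822 to 78081 CPM, counts scaled to the library total, in hepatocytes, adipocyte markers to 13225 to 15211 CPM in adipocytes, and myotube markers to 18680 to 19986 CPM in C2C12 cells. In the adipocyte cultures a list of stellate cell and fibroblast markers, Col1a1 among them, summed to 17499 to 19572 CPM, above the adipocyte markers. Of its 8 genes 5 reached 1 TPM there, and Lrat and Colec10 had no counts in any adipocyte library. Levels in adipocytes are therefore those of the cultures, and the part of other cells in them was not tested. Stellate cell and fibroblast markers in hepatocytes summed to 517 counts with calcitriol, 81 with calcifediol, 79 with olanzapine alone and 83 with vehicle. Of these 8 markers 2 reached 1 TPM in hepatocytes, Col1a1 and Col3a1, and the calcitriol library was the high one for both. Adipocyte markers in hepatocytes summed to 1616 counts with calcifediol, 1589 with calcitriol, 1200 with olanzapine alone and 1186 with vehicle. The part of other cells in these sums was not tested. As a check of the treatments, Cyp24a1, the vitamin D catabolic enzyme induced by the vitamin D receptor, had 6193 counts with calcifediol, 9096 with calcitriol, 0 with olanzapine alone and 1 with vehicle in C2C12 cells. In adipocytes Cyp24a1 had 661 counts with calcifediol, 579 with calcitriol, 0 with olanzapine alone and 2 with vehicle, and in hepatocytes 4 counts with calcifediol, 4 with calcitriol, 0 with olanzapine alone and 0 with vehicle. The receptor gene Vdr was at 482 CPM with calcifediol, 513 with calcitriol, 109 with olanzapine alone and 111 with vehicle in C2C12 cells, and between 0.05 and 2.07 CPM in the libraries of the other cell types.

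Ligands of this family are secreted dimers that bring together type I and type II receptor kinases. TGF-betas, activins and myostatin signal mainly through Smad2 and Smad3, and BMPs mainly through Smad1, Smad5 and Smad9, with Smad4 as the shared partner. Smad6 and Smad7 oppose the signal inside the cell, and noggin, gremlin and the follistatins bind ligands outside it. Id1 to Id4 are classical BMP targets whose products restrain basic helix-loop-helix factors, including the myogenic ones. In muscle, BMP ligands hold back differentiation of myoblasts, and myostatin and activins limit muscle size. In liver, BMP6 controls hepcidin, and in fat BMP signals take part in commitment of precursors.

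Levels between genes are compared here in TPM, a transcript abundance normalised to gene length and recomputed from the deposited FPKM values. The 3 cell types were tabulated separately and differed in animal source and medium, so differences between them are descriptions. Hepatocytes had 27 members that reached 1 TPM in some library, adipocytes had 38 and C2C12 cells had 39. Over all genes listed, 10963 of 17742 did so in hepatocytes, 11804 of 17742 in adipocytes and 12124 of 16908 in C2C12 cells. In all, 46 members reached that level in at least 1 cell type and 21 did so in every cell type. C2C12 cells held the highest level of 23 members with no overlap between their 4 libraries and those of the next cell type, adipocytes of 12 and hepatocytes of 3. The same share over all genes was not counted, so these counts are not read as a trait of the family.

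**Figure D1:**
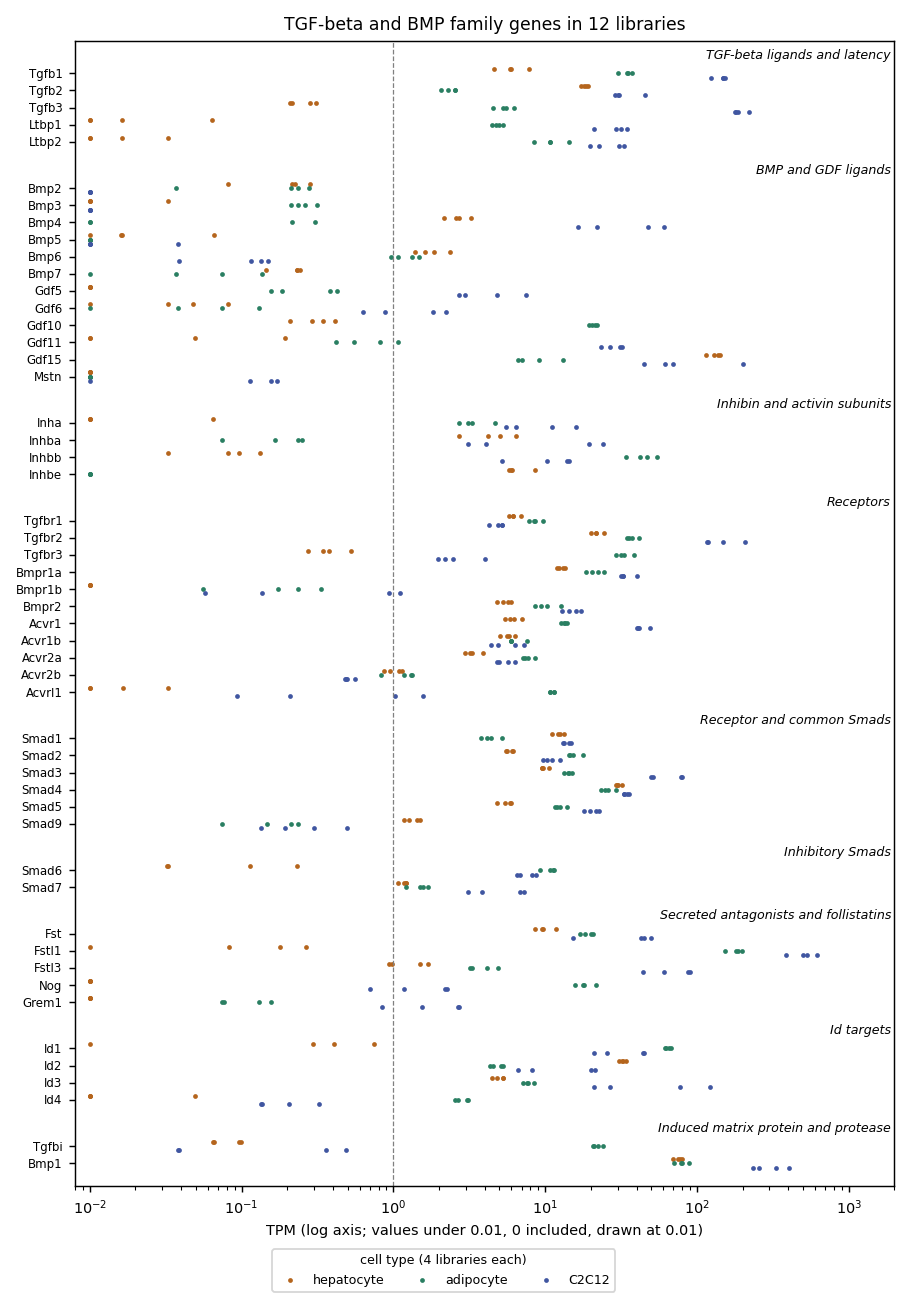
Level of each of the 51 members in TPM (log axis), grouped by role. Each point is 1 library, with 4 libraries per cell type, values under 0.01 are drawn at 0.01 and the dashed line marks a TPM of 1. Hepatocytes pass that line for 27 members, adipocytes for 38 and C2C12 cells for 39.

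Among TGF-beta ligands, each cell type had a different leading gene. In C2C12 cells it was Tgfb3, at 179 TPM with calcifediol, 220.0 with calcitriol, 180.0 with olanzapine alone and 187 with vehicle. In adipocytes it was Tgfb1, at 34.9 TPM with calcifediol, 37.4 with calcitriol, 34.7 with olanzapine alone and 30.04 with vehicle. In hepatocytes it was Tgfb2, at 18.5 TPM with calcifediol, 19.3 with calcitriol, 17.3 with olanzapine alone and 18.0 with vehicle. For each of the 3 ligands the ranges of the cell types did not overlap. The latent TGF-beta binding proteins Ltbp1 and Ltbp2, which store the ligand in matrix, were at 19.9 to 34.5 TPM in C2C12 cells and 4.47 to 14.4 TPM in adipocytes, and did not pass 1 TPM in hepatocytes.

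Gdf15, a stress-responsive cytokine that signals through a receptor outside the family, was the most abundant BMP or GDF ligand in hepatocytes, at 138 TPM with calcifediol, 129 with calcitriol, 115 with olanzapine alone and 142 with vehicle. In adipocytes Gdf10 led, at 20.4 TPM with calcifediol, 19.5 with calcitriol, 22.1 with olanzapine alone and 21.5 with vehicle. Bmp6, the hepcidin-inducing ligand, was at 1.38 to 2.38 TPM in hepatocytes and overlapped the adipocyte range of 0.96 to 1.47 TPM. Bmp4 was at 16.5 to 60.4 TPM in C2C12 cells, at 2.15 to 3.26 TPM in hepatocytes, and at most 0.31 TPM in adipocytes. Bmp2, Bmp3, Bmp5 and Bmp7 did not pass 1 TPM in any cell type, nor did Mstn, which encodes myostatin.

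Of the inhibin and activin subunits, hepatocytes carried mainly Inhbe, the subunit of activin E, at 5.77 TPM with calcifediol, 5.96 with calcitriol, 8.61 with olanzapine alone and 6.04 with vehicle. Adipocytes carried mainly Inhbb, the subunit of activin B, at 33.9 TPM with calcifediol, 47.1 with calcitriol, 54.5 with olanzapine alone and 42.0 with vehicle. C2C12 cells without vitamin D carried mainly Inhba, the subunit of activin A, and its values are given with the treatments. Inha, the subunit that turns activins into inhibins, was at 5.53 to 16.1 TPM in C2C12 cells, 2.72 to 4.64 TPM in adipocytes and at most 0.07 TPM in hepatocytes.

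The TGF-beta type II receptor Tgfbr2 was the leading receptor of every cell type. It was at 149 TPM with calcifediol, 207 with calcitriol, 117 with olanzapine alone and 118 with vehicle in C2C12 cells. Adipocytes had 34.7 TPM with calcifediol, 37.4 with calcitriol, 41.6 with olanzapine alone and 35.8 with vehicle, and hepatocytes had 24.3 TPM with calcifediol, 21.7 with calcitriol, 21.7 with olanzapine alone and 20.04 with vehicle. Tgfbr3, the coreceptor betaglycan, was instead highest in adipocytes, with 29.4 to 38.3 TPM in adipocytes, 1.97 to 3.99 TPM in C2C12 cells and 0.27 to 0.53 TPM in hepatocytes. Acvrl1, the type I receptor ALK1 best known from endothelium, was at 10.7 to 11.5 TPM in adipocytes.

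Smad4, the common partner, was the leading Smad of hepatocytes, at 29.9 TPM with calcifediol, 31.9 with calcitriol, 29.4 with olanzapine alone and 30.4 with vehicle. It also led in adipocytes, at 23.4 TPM with calcifediol, 26.0 with calcitriol, 29.4 with olanzapine alone and 24.9 with vehicle. Smad3, which carries TGF-beta and activin signals, led in C2C12 cells, at 78.4 TPM with calcifediol, 79.6 with calcitriol, 49.5 with olanzapine alone and 51.7 with vehicle. Smad9 passed 1 TPM in hepatocytes alone, at 1.17 TPM or more in each library. Smad6, the inhibitor of BMP signals, was at 9.19 TPM with calcifediol, 11.2 with calcitriol, 11.4 with olanzapine alone and 10.7 with vehicle in adipocytes. In C2C12 cells Smad6 was at 8.71 TPM with calcifediol, 6.54 with calcitriol, 8.17 with olanzapine alone and 6.83 with vehicle. In hepatocytes, where Smad6 stayed under 1 TPM, Smad7 was at 1.22 TPM with calcifediol, 1.07 with calcitriol, 1.17 with olanzapine alone and 1.205 with vehicle.

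Fstl1, a secreted follistatin-like glycoprotein, was the most abundant member of all in C2C12 cells, at 388 TPM with calcifediol, 619.7 with calcitriol, 499 with olanzapine alone and 528 with vehicle. It was also the most abundant in adipocytes, at 154 TPM with calcifediol, 179.9 with calcitriol, 187 with olanzapine alone and 198 with vehicle. Hepatocytes held at most 0.26 TPM of Fstl1, in the library with calcitriol, where the marker sum that includes Col1a1 and Col3a1 was high. The activin-binding Fst was their leading antagonist, at 8.54 TPM with calcifediol, 9.49 with calcitriol, 11.7 with olanzapine alone and 9.75 with vehicle. Nog, which encodes the BMP antagonist noggin, was at 15.7 to 21.5 TPM in adipocytes and had no counts in hepatocytes.

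The Id genes were divided among the cell types. Id1 led in adipocytes, at 67.4 TPM with calcifediol, 62.2 with calcitriol, 61.2 with olanzapine alone and 65.9 with vehicle. Id2 led in hepatocytes, at 34.2 TPM with calcifediol, 30.7 with calcitriol, 32.7 with olanzapine alone and 31.9 with vehicle. Id3 led in the C2C12 libraries with vitamin D, and its values are given with the treatments. Bmp1, the procollagen C-proteinase that is not itself a BMP ligand, was at 331 TPM with calcifediol, 402 with calcitriol, 257 with olanzapine alone and 235 with vehicle in C2C12 cells. It was at 78.7 TPM with calcifediol, 88.7 with calcitriol, 70.5 with olanzapine alone and 80.3 with vehicle in adipocytes and at 69.6 TPM with calcifediol, 79.9 with calcitriol, 75.2 with olanzapine alone and 77.9 with vehicle in hepatocytes. Tgfbi, a TGF-beta-induced matrix protein, was at 20.5 to 24.2 TPM in adipocytes and at most 0.49 TPM elsewhere.

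Treatment comparisons were made within a cell type between libraries scaled to total counts, and members are called at a minimum fold change (FC) of 2 and a maximum false discovery rate (FDR) of 0.05 over all genes tested. The FDR comes from the Audic-Claverie test on the reads of 2 libraries, which compares those libraries and not the conditions. Olanzapine against vehicle gave no member past these thresholds in any cell type. The background was 0.124% of genes higher and 0.19% lower for C2C12 cells, 0.373% and 0.847% for adipocytes, and 0.173% and 0.182% for hepatocytes, so 0 calls among 27 to 39 members is near the background. The members' log2 ratios ran between -1.06 and 0.49 (C2C12 cells), -0.65 and 0.48 (adipocytes), and -0.41 and 0.59 (hepatocytes). The lowest belonged to Acvrl1 in C2C12 cells, with 3 counts with olanzapine and 7 with vehicle, an interval that holds 0.

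Vitamin D with olanzapine against olanzapine alone gave calls among the members in C2C12 cells. With calcifediol, 6 of 39 members were higher and 7 lower, against a background of 5.28% of all 12124 genes higher and 6.29% lower. With calcitriol, 3 were higher and 8 lower, against 4.43% and 3.93%. The median absolute log2 ratio of the members was 0.47 with calcifediol and 0.55 with calcitriol, beside 0.27 and 0.22 over all genes tested. Members past 2-fold with each metabolite against both olanzapine alone and vehicle were Acvrl1, Bmp4 and Id3 on the higher side (background 3.05%) and Bmpr1b, Gdf6, Id2 and Inhba on the lower side (2.61%). Of these, Acvrl1, Bmpr1b and Gdf6 passed the TPM filter only through libraries where they were high, so they had to differ. They are also among the calls with each metabolite. The comparisons share the olanzapine library. Because the doses were 10 µM and 0.1 µM, the 2 metabolites are given side by side and not compared.

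**Figure D2:**
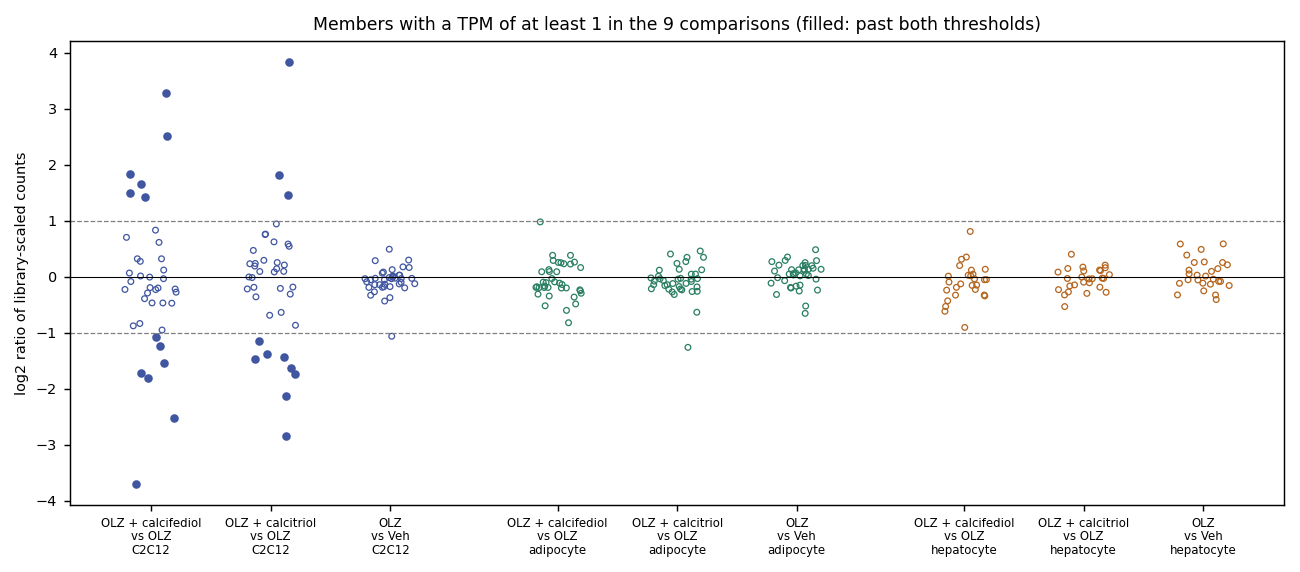
Log2 ratio of library-scaled counts for the members with a TPM of at least 1, in the 9 comparisons. Each point is 1 gene, and filled points are past both thresholds (dashed lines at log2 ratios of -1 and 1). Filled points are found in C2C12 cells alone, 13 for calcifediol and 11 for calcitriol.

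A test was possible between the 2 C2C12 libraries with a vitamin D metabolite and the 2 without. Its error term is the difference between the metabolites and between olanzapine and vehicle, with 2 residual degrees of freedom, and not the spread between replicate cultures. By edgeR's quasi-likelihood test with Benjamini-Hochberg adjustment over all genes, 16 of 39 members passed (41.0%), 8 higher and 8 lower, against a background of 19.3% of all genes, 9.03% higher and 10.3% lower. Among the 16 were Acvrl1, Gdf6 and Bmpr1b, which passed the TPM filter only through libraries where they were high. The number of members that passed moved with each library left out. It fell without the vehicle or the olanzapine library and rose without the calcifediol or the calcitriol library. The number over all genes moved the same way. These fits leave 1 library on a side, so their counts are not read as a result about the members. Bmp4 and Id3 as higher and Inhba and Id2 as lower passed in the main test and in all 11 alternatives of it. So did Bmpr1b as lower, but it passed the TPM filter only through the vehicle library, so its test adds no support. In bulk RNA, fewer cells of a type and less RNA per cell cannot be told apart.

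**Figure D3:**
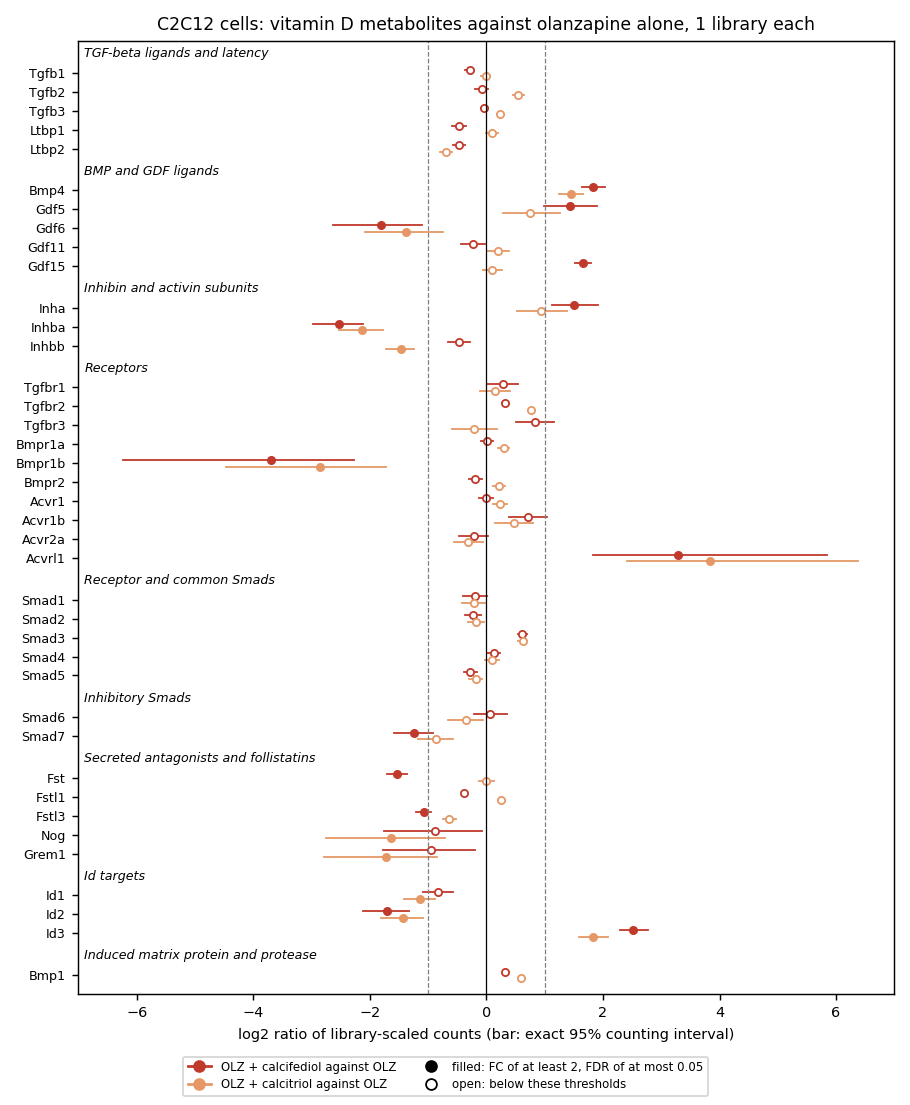
Log2 ratio of each of the 39 members tested in C2C12 cells, for olanzapine with calcifediol and olanzapine with calcitriol against olanzapine alone (1 library each). Bars are exact 95% counting intervals, filled points passed both thresholds, a 2-fold change and an FDR of 0.05, and dashed lines mark log2 ratios of -1 and 1. Acvrl1 and Bmpr1b lie farthest out, at 3.84 and -3.70, with the widest intervals.

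Among the ligands of C2C12 cells, Bmp4 rose and Gdf6 fell with vitamin D. Bmp4, a BMP that opposes myogenic differentiation, was at 52.0 CPM with calcifediol, 40.1 with calcitriol, 14.6 with olanzapine alone and 18.9 with vehicle. Both vitamin D libraries were above both others. Its log2 ratio to olanzapine alone was 1.83 (1.63 to 2.04) with calcifediol and 1.45 (1.25 to 1.67) with calcitriol, and its fold change by edgeR was 1.43 ± 0.17 (SE; adjusted p = 0.00299) on the log2 scale. Gdf5, a joint and cartilage morphogen, was at 8.77 CPM with calcifediol, 5.50 with calcitriol, 3.25 with olanzapine alone and 3.48 with vehicle. Again the vitamin D libraries lay above the others, with log2 ratios of 1.43 with calcifediol and 0.76 with calcitriol, of which the calcifediol one was called, and edgeR gave 1.06 ± 0.28 (SE; adjusted p = 0.0411). Gdf5 passed in 7 of 11 alternatives, and not by limma, with olanzapine as a term, or without the olanzapine or the vehicle library. Gdf6, a close relative of Gdf5, lay on the opposite side, with 20 counts with calcifediol, 28 with calcitriol, 73 with olanzapine alone and 61 with vehicle. Its log2 ratios were -1.81 with calcifediol and -1.38 with calcitriol, and edgeR gave -1.47 ± 0.32 (SE; adjusted p = 0.0228), which passed in 8 of 11 alternatives. Gdf6 passed the TPM filter only through the libraries without vitamin D, so it had to differ.

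Gdf15 was at 105 CPM with calcifediol, 35.5 with calcitriol, 33.1 with olanzapine alone and 23.5 with vehicle in C2C12 cells. The library with calcifediol was the high one, and the groups with and without vitamin D did not overlap. The log2 ratio was 1.66 (1.53 to 1.80) with calcifediol and 0.10 (-0.07 to 0.26) with calcitriol, and Gdf15 did not pass the edgeR test, at 1.28 ± 0.46 (SE; adjusted p = 0.106). Gdf11, a ligand close to myostatin, was at 21.2 to 28.3 CPM and was called nowhere. The TGF-beta ligands were likewise not called, with log2 ratios of -0.29 with calcifediol and -0.01 with calcitriol for Tgfb1, -0.08 with calcifediol and 0.55 with calcitriol for Tgfb2 and -0.03 with calcifediol and 0.23 with calcitriol for Tgfb3. Ltbp2 fell in the edgeR test and in 9 of 11 alternatives, at -0.64 ± 0.10 (SE; adjusted p = 0.00685), with 81.1 CPM with calcifediol, 69.6 with calcitriol, 112 with olanzapine alone and 119 with vehicle. For Ltbp1 the log2 ratios were -0.47 with calcifediol and 0.09 with calcitriol.

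The activin and inhibin subunits moved in different directions. Inhba was at 3.10 CPM with calcifediol, 4.06 with calcitriol, 17.9 with olanzapine alone and 24.2 with vehicle. Both vitamin D libraries were far below the others. The log2 ratio was -2.52 (-2.98 to -2.11) with calcifediol and -2.13 (-2.53 to -1.77) with calcitriol, and the edgeR fold change of -2.58 ± 0.22 (SE; adjusted p = 0.000895) had the lowest adjusted p of the 39 members. Inhbb was at 22.5 CPM with calcifediol, 11.2 with calcitriol, 31.1 with olanzapine alone and 31.2 with vehicle. The vitamin D libraries were the lower ones, with log2 ratios of -0.47 with calcifediol and -1.47 with calcitriol, the calcitriol one called, but Inhbb missed the edgeR threshold at -0.92 ± 0.29 (SE; adjusted p = 0.0713). Inha was at 11.6 CPM with calcifediol, 7.89 with calcitriol, 4.09 with olanzapine alone and 4.62 with vehicle and rose by edgeR, 1.14 ± 0.24 (SE; adjusted p = 0.0191). Its log2 ratios were 1.504 with calcifediol and 0.94 with calcitriol, the calcifediol one called. Like Gdf5, Inha passed edgeR in 7 of 11 alternatives and lost the call in the same 4.

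**Figure D4:**
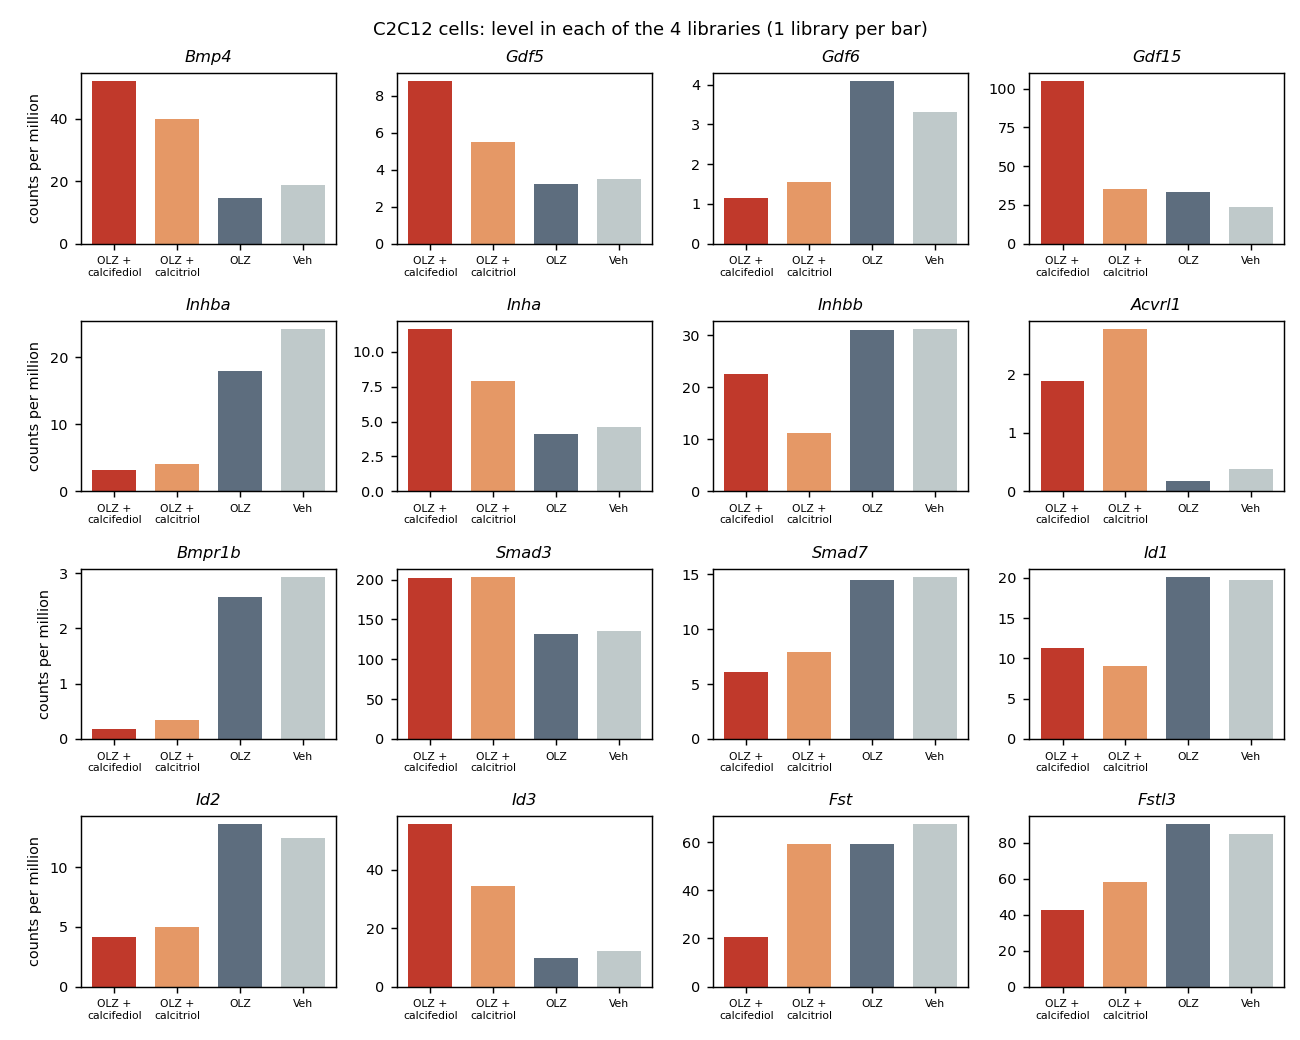
CPM of 16 members in the 4 C2C12 libraries, 1 bar per library, with each vertical axis starting at 0. From left to right the bars are olanzapine with calcifediol, olanzapine with calcitriol, olanzapine alone and vehicle. Bmp4, Id3, Inha and Acvrl1 are higher in both libraries with vitamin D, and Inhba, Id1, Id2, Bmpr1b and Smad7 are lower in both.

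Of 10 receptors tested in C2C12 cells, Acvrl1 and Tgfbr2 rose and Bmpr1b fell by edgeR, where 19.3% of all genes passed (9.03% higher and 10.3% lower). Acvrl1 had 33 counts with calcifediol, 50 with calcitriol, 3 with olanzapine alone and 7 with vehicle. These are small numbers, and the gene passed the TPM filter only through the libraries with vitamin D, so that it had to differ and its test adds no support. The log2 ratio was 3.29 (1.82 to 5.84) with calcifediol and 3.84 (2.42 to 6.37) with calcitriol, and edgeR gave 3.03 ± 0.53 (SE; adjusted p = 0.0103), which passed in 9 of 11 alternatives. Together, 5 endothelial markers had 5 counts with calcifediol, 7 with calcitriol, 14 with olanzapine alone and 8 with vehicle, with Pecam1 and Tie1 at 0 in all 4. None of these markers reached 1 TPM, and Eng, a coreceptor outside that list, was higher with vitamin D, as given below. The part of endothelial cells in the Acvrl1 counts was not tested. Bmpr1b, the BMP type IB receptor, showed the reverse, with 3 counts with calcifediol, 6 with calcitriol, 46 with olanzapine alone and 54 with vehicle. Its log2 ratio was -3.70 (-6.23 to -2.27) with calcifediol and -2.85 (-4.47 to -1.72) with calcitriol, and edgeR gave -3.43 ± 0.46 (SE; adjusted p = 0.00424). Bmpr1b passed the TPM filter only through the vehicle library, where it was highest, so its test adds no support.

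Tgfbr2 was at 363 CPM with calcifediol, 493 with calcitriol, 291 with olanzapine alone and 288 with vehicle. The rise was smaller, with log2 ratios of 0.32 with calcifediol and 0.76 with calcitriol and an edgeR value of 0.54 ± 0.15 (SE; adjusted p = 0.0486), and it passed in 5 of 11 alternatives. The other receptors with a TPM of at least 1 were not called and did not pass edgeR. Bmpr1a, the widely used BMP type IA receptor, had log2 ratios of 0.02 with calcifediol and 0.30 with calcitriol, and Acvr1 had 0.00 with calcifediol and 0.24 with calcitriol. For the type II receptors Bmpr2 and Acvr2a they were -0.19 with calcifediol and 0.21 with calcitriol, and -0.22 with calcifediol and -0.31 with calcitriol. Acvr1b, the activin type I receptor, had 0.71 with calcifediol and 0.47 with calcitriol, Tgfbr1 had 0.28 with calcifediol and 0.14 with calcitriol, and Tgfbr3 had 0.83 with calcifediol and -0.21 with calcitriol.

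Among the Smads, Smad3 rose and Smad7 fell. Smad3 was at 202 CPM with calcifediol, 204 with calcitriol, 132 with olanzapine alone and 135 with vehicle, so the libraries paired off by vitamin D. Its log2 ratios were 0.62 with calcifediol and 0.62 with calcitriol, below the FC threshold of 2, and edgeR gave 0.58 ± 0.08 (SE; adjusted p = 0.00452). Smad7, which is induced by TGF-beta and feeds back on its receptor, was at 6.13 CPM with calcifediol, 7.95 with calcitriol, 14.5 with olanzapine alone and 14.8 with vehicle. The log2 ratio was -1.24 (-1.58 to -0.91) with calcifediol and -0.87 (-1.17 to -0.57) with calcitriol, the calcifediol one called, and edgeR gave -1.08 ± 0.17 (SE; adjusted p = 0.00713). Smad3 and Smad7 each passed in 8 of 11 alternatives, and not with olanzapine as a term or without the olanzapine or the vehicle library. Smad1, Smad2, Smad4, Smad5 and Smad6 were not called and did not pass edgeR, with log2 ratios between -0.36 and 0.12 with either metabolite.

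All 5 secreted antagonists, each past a TPM of 1 in C2C12 cells, were lower with calcifediol than with olanzapine alone. With calcitriol Fst was at a log2 ratio of 0.00 and Fstl1 was higher, at 0.26. With each metabolite 2 of the 5 were called lower, against 6.29% of all genes with calcifediol and 3.93% with calcitriol. By edgeR 1 of the 5 passed, Fstl3, which is near the background of 19.3% of all genes. Fstl3, which binds activins and myostatin, was at 42.9 CPM with calcifediol, 58.2 with calcitriol, 90.4 with olanzapine alone and 85.2 with vehicle, with log2 ratios of -1.08 with calcifediol and -0.64 with calcitriol, the calcifediol one called, and an edgeR value of -0.82 ± 0.15 (SE; adjusted p = 0.0122). That call held in 7 of 11 alternatives, and not by limma, with Rplp0 scaling, with olanzapine as a term or without the olanzapine library. Fst, the main activin-binding follistatin, was at 20.4 CPM with calcifediol, 59.1 with calcitriol, 59.2 with olanzapine alone and 67.5 with vehicle. Only the calcifediol library was low, at a log2 ratio of -1.54 (-1.71 to -1.36), while the calcitriol ratio was 0.00 (-0.13 to 0.12), and edgeR gave -0.69 ± 0.42 (SE; adjusted p = 0.3). Nog had 20 counts with calcifediol, 12 with calcitriol, 38 with olanzapine alone and 40 with vehicle. Grem1, which encodes the BMP antagonist gremlin, had 22 counts with calcifediol, 13 with calcitriol, 44 with olanzapine alone and 40 with vehicle. Both genes had their lowest counts with calcitriol, where they were called, with log2 ratios of -1.63 (-2.75 to -0.71) for Nog and -1.73 (-2.79 to -0.85) for Grem1. Neither passed edgeR, at -1.27 ± 0.40 (SE; adjusted p = 0.0724) for Nog and -1.25 ± 0.39 (SE; adjusted p = 0.0738) for Grem1. Fstl1 had log2 ratios of -0.39 with calcifediol and 0.26 with calcitriol.

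The Id genes did not move together in C2C12 cells: Id3 rose, and Id1 and Id2 fell. Id3 was at 55.7 CPM with calcifediol, 34.4 with calcitriol, 9.68 with olanzapine alone and 12.2 with vehicle, so both vitamin D libraries exceeded the others. The log2 ratio was 2.52 (2.29 to 2.77) with calcifediol and 1.83 (1.58 to 2.08) with calcitriol, and edgeR gave 2.01 ± 0.24 (SE; adjusted p = 0.00294). Id2 was at 4.13 CPM with calcifediol, 5.002 with calcitriol, 13.6 with olanzapine alone and 12.4 with vehicle, and here the vitamin D libraries were the low ones. The log2 ratio was -1.71 (-2.12 to -1.34) with calcifediol and -1.44 (-1.81 to -1.09) with calcitriol, and edgeR gave -1.54 ± 0.17 (SE; adjusted p = 0.00239). Id1 was at 11.3 CPM with calcifediol, 9.11 with calcitriol, 20.2 with olanzapine alone and 19.7 with vehicle, with log2 ratios of -0.83 with calcifediol and -1.14 with calcitriol, the calcitriol one called, and an edgeR value of -0.99 ± 0.14 (SE; adjusted p = 0.00543), which passed in 9 of 11 alternatives. Id4 stayed under 1 TPM, with 2 to 5 counts per library.

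Promoter windows of 300 bases, 250 before and 50 after the annotated gene start, were taken from RefSeq (GRCm38.p6), where 36 of the 51 members had 43 windows. Not matched were Acvrl1, Bmp1, Bmp2, Bmp3, Bmp7, Fst, Gdf5, Gdf6, Id1, Nog, Smad2, Smad4, Smad7, Tgfb3 and Tgfbr3. The windows of Id2 and Id3 are printed because the pair moved in opposite directions, and those of Fstl3 and Bmpr1b as 2 genes that fell and hold a CAGACA match. The Inhba window, of the gene with the lowest adjusted p, and the Bmp4 window hold no such match. Bmpr1b has 3 windows, of which 1 holds a match and is printed. Capitals mark exact matches, on either strand, to GGCGCC, a site bound by BMP Smads, in Id2, and to CAGACA, a part of the TGF-beta responsive CAGA box, in Fstl3 (as its complement) and Bmpr1b. The windows lie at chr12:25096043-25096342 on the minus strand for Id2, chr4:136143572-136143871 on the plus strand for Id3, chr10:79777024-79777323 on the plus strand for Fstl3, and chr3:141982215-141982514 on the minus strand for Bmpr1b.
Id2: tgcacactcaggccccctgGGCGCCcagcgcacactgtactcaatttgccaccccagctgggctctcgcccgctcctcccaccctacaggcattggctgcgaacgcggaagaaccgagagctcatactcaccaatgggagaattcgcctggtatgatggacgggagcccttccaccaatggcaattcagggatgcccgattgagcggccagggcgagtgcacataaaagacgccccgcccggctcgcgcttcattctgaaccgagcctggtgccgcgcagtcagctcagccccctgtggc
Id3: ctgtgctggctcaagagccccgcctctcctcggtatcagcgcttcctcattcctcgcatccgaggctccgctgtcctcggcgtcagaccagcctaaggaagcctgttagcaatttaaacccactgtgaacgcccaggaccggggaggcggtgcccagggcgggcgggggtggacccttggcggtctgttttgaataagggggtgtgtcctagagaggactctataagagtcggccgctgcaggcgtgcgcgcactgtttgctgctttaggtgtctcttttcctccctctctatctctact
Fstl3: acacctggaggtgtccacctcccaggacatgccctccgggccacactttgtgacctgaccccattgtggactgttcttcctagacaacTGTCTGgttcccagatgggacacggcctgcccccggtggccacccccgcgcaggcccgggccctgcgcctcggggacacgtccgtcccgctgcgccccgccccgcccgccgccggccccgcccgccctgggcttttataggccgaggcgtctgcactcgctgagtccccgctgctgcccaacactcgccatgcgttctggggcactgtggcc
Bmpr1b: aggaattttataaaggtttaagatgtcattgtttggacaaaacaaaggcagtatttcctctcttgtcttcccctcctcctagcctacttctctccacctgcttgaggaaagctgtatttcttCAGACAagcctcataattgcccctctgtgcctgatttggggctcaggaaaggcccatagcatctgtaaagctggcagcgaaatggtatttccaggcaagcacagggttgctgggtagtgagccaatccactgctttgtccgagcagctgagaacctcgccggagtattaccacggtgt
The match in Id2 starts at position -231 from the gene start, the match in Fstl3 at -162 and that in Bmpr1b at -128.

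Over all members, GGCGCC occurred in 12 of 43 windows (27.9%), among them Id2, Id4, Grem1, Smad5 and Bmpr2, beside 11.9% of all 32851 windows. CAGACA occurred in 7 of 43 (16.3%), including Tgfb2, Tgfbr1, Ltbp1, Fstl3 and Bmpr1b, beside 21.0% of all windows. GTCTAGAC, the palindromic Smad binding element, occurred in Smad6 alone, beside 0.213% of all windows. The printed Id3 window held no match to GGCGCC. These matches are descriptions of the letters and were not tested against the expression values.

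Bmp1 rose in C2C12 cells, at 709 CPM with calcifediol, 850.3 with calcitriol, 567 with olanzapine alone and 505 with vehicle. Its log2 ratios were 0.32 with calcifediol and 0.59 with calcitriol, and edgeR gave 0.52 ± 0.12 (SE; adjusted p = 0.0281), which passed in 6 of 11 alternatives. Tgfbi was below 1 TPM in C2C12 cells, with 1 count with calcifediol, 1 with calcitriol, 12 with olanzapine alone and 9 with vehicle, so it entered no main comparison.

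In adipocytes and hepatocytes no member was called with either metabolite. The adipocyte background was 0.746% of genes higher and 0.762% lower with calcifediol, and 0.517% and 0.466% with calcitriol. The hepatocyte background was 0.192% and 0.374% with calcifediol, and 0.255% and 0.447% with calcitriol. At these shares, calls among 38 or 27 members would be few, so the counts of 0 are near the background. The edgeR test of vitamin D found 0 of 38 members in adipocytes (2 at an unadjusted p under 0.05, and 0 by DESeq2 and by limma) against a background of 0.212%, 0.152% higher and 0.0593% lower. It found 0 of 27 in hepatocytes (1 at an unadjusted p under 0.05, and 0 by DESeq2 and by limma) against 0.237%, 0.073% higher and 0.164% lower. No member was past 2-fold with each metabolite against both references, where the background was 0.186% higher and 0.102% lower in adipocytes, and 0.0639% higher and 0.0182% lower in hepatocytes.

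The members with the largest ratios outside C2C12 cells were ligands. In adipocytes, Gdf15 was at 13.1 TPM with calcifediol, 9.17 with calcitriol, 7.02 with olanzapine alone and 6.67 with vehicle, with a log2 ratio of 0.98 (0.53 to 1.46) with calcifediol, just under the 2-fold threshold. Gdf11 had 9 counts with calcifediol, 6 with calcitriol, 16 with olanzapine alone and 12 with vehicle in adipocytes, where the ratio of -1.26 (-2.97 to 0.10) with calcitriol rested on these few counts. Hepatocyte Inhba had 68 counts with calcifediol, 149 with calcitriol, 122 with olanzapine alone and 83 with vehicle, so the calcifediol library was the lowest of the 4 and the calcitriol library the highest. Its log2 ratio was -0.90 (-1.36 to -0.47) with calcifediol and 0.21 (-0.14 to 0.57) with calcitriol. Bmp6 in hepatocytes had 83 counts with calcifediol, 63 with calcitriol, 45 with olanzapine alone and 55 with vehicle, with log2 ratios of 0.81 with calcifediol and 0.40 with calcitriol.

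Several genes that moved in C2C12 cells were measured in the other cell types without a call. Id3 had log2 ratios of 0.23 with calcifediol and 0.01 with calcitriol in adipocytes, and of -0.09 with calcifediol and -0.02 with calcitriol in hepatocytes. Id2 had 0.26 with calcifediol and -0.04 with calcitriol in adipocytes, and 0.12 with calcifediol and -0.10 with calcitriol in hepatocytes. Acvrl1, at higher levels in adipocytes than in any C2C12 library, had 351 counts with calcifediol, 331 with calcitriol, 324 with olanzapine alone and 341 with vehicle there, and log2 ratios of 0.09 with calcifediol and 0.12 with calcitriol. Whether these ratios differ between cell types was not tested.

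Another 98 genes of the pathway, in 7 lists, were followed, first in C2C12 cells. Among 17 genes known to respond to TGF-beta that passed the TPM filter, 3 rose and 9 fell by edgeR, against the 9.03% higher and 10.3% lower over all genes. With each metabolite 1 was called higher and 9 lower, against 5.28% and 6.29% of all genes with calcifediol and 4.43% and 3.93% with calcitriol. The 17 had a median log2 ratio of -1.03 with calcifediol and -1.003 with calcitriol, beside 0.03 and 0.02 over all genes. Postn, which encodes the matrix protein periostin, was at 29.3 CPM with calcifediol, 38.9 with calcitriol, 381 with olanzapine alone and 396 with vehicle, and edgeR gave -3.53 ± 0.15 (SE; adjusted p = 7.83e-05). Cnn1, the smooth muscle calponin, had 20 counts with calcifediol, 174 with calcitriol, 471 with olanzapine alone and 507 with vehicle, with log2 ratios of -4.49 with calcifediol and -1.44 with calcitriol, but missed the edgeR threshold at -2.33 ± 0.66 (SE; adjusted p = 0.0546). The transgelin gene Tagln had 3130 counts with calcifediol, 7054 with calcitriol, 16567 with olanzapine alone and 16903 with vehicle, with an edgeR value of -1.71 ± 0.33 (SE; adjusted p = 0.0141). Cyr61, a matricellular protein of the CCN family, was at 86.1 CPM with calcifediol, 163 with calcitriol, 427 with olanzapine alone and 414 with vehicle, with -1.78 ± 0.27 (SE; adjusted p = 0.00649).

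The exception by size was Tgm2, the tissue transglutaminase, which rose. It was at 830.1 CPM with calcifediol, 946 with calcitriol, 172 with olanzapine alone and 150.0 with vehicle, and edgeR gave 2.44 ± 0.12 (SE; adjusted p = 0.000126). The other genes of the list that rose were Col1a1, at 0.52 ± 0.10 (SE; adjusted p = 0.0127), and Col1a2, at 0.48 ± 0.08 (SE; adjusted p = 0.009), the chains of type I collagen. Col1a1 is also 1 of 8 stellate cell and fibroblast markers. In C2C12 cells these summed to 11032 CPM with calcifediol, 11807 with calcitriol, 8781 with olanzapine alone and 8725 with vehicle. The list did not move together: of the 6 that reached 1 TPM, Col1a1 alone rose by edgeR. Dpt fell, at -2.79 ± 0.36 (SE; adjusted p = 0.00377), and Col3a1, Pdgfra, Pdgfrb and Colec10 did not pass. Adipocyte markers summed to 366 counts with calcifediol, 229 with calcitriol, 95 with olanzapine alone and 110 with vehicle, with Plin1 and Lep at 0 in all 4. The part of these shifts in the results was not tested.

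**Figure D5:**
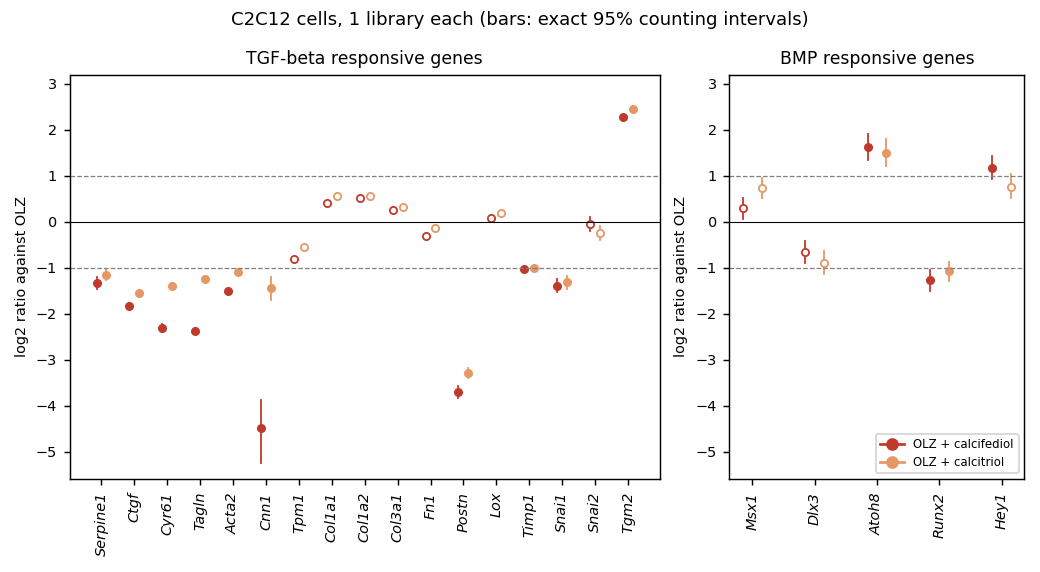
Log2 ratio to olanzapine alone of TGF-beta responsive genes (17, left) and BMP responsive genes (5, right) in C2C12 cells, for olanzapine with calcifediol and olanzapine with calcitriol, 1 library each. Bars are exact 95% counting intervals and filled points passed both thresholds, a 2-fold change and an FDR of 0.05. With each metabolite 9 TGF-beta responsive genes lie at or below -1 as filled points, and Tgm2 lies above 2.

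The list differed in the other cell types. In hepatocytes, 4 of 16 TGF-beta responsive genes were higher with vitamin D by edgeR and 0 lower, against 0.237% of all genes. Col1a1 had 17 counts with calcifediol, 191 with calcitriol, 6 with olanzapine alone and 2 with vehicle, at 4.60 ± 0.78 (SE; adjusted p = 0.0055). Col1a2 was at 0.730 CPM with calcifediol, 6.46 with calcitriol, 0.0546 with olanzapine alone and 0.426 with vehicle, and Col3a1, a chain of type III collagen, had 5 counts with calcifediol, 253 with calcitriol, 10 with olanzapine alone and 6 with vehicle. Col1a1 and Col3a1 are 2 of the 8 stellate cell and fibroblast markers, so the high marker sum with calcitriol is not separate from them. The 3 collagen genes had to differ, and neither their tests nor the count of 4 adds support. They passed the TPM filter only through the library where they were high, the one with calcitriol. Without it only Lox, the collagen crosslinking enzyme, passed, and none of the list did without the olanzapine or the vehicle library, with olanzapine as a term, with no TPM filter, by DESeq2 or by limma. Lox had 608 counts with calcifediol, 504 with calcitriol, 373 with olanzapine alone and 360 with vehicle, at 0.55 ± 0.12 (SE; adjusted p = 0.0294). In adipocytes 1 of 17 (5.88%) was higher and 0 lower, against 0.212%. It was Timp1, an inhibitor of matrix proteases, at 33.8 CPM with calcifediol, 34.5 with calcitriol, 19.7 with olanzapine alone and 23.8 with vehicle, with 0.68 ± 0.12 (SE; adjusted p = 0.0472), which did not pass by limma, with Rplp0 scaling or without scaling factors. In C2C12 cells Timp1 fell, at 230.0 CPM with calcifediol, 234 with calcitriol, 469 with olanzapine alone and 484 with vehicle, with -1.06 ± 0.08 (SE; adjusted p = 0.000684). The difference between the cell types was not tested. No gene of the other 6 lists passed by edgeR, DESeq2 or limma in hepatocytes (0 at an unadjusted edgeR p under 0.05 in each list) or in adipocytes (1 to 4 per list). Between 2 libraries, Atoh8 was called higher in adipocytes with calcifediol (log2 ratio 1.30) and with calcitriol (1.24). For it edgeR gave 1.73 ± 0.40 (SE; adjusted p = 0.167). Also called were Gdf1, higher in adipocytes with calcifediol, Nbl1, lower there with calcitriol, and Bgn, higher in hepatocytes with calcitriol. The shares of all genes called are those given above.

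Among 5 BMP responsive genes with a TPM of at least 1, 2 rose and 2 fell by edgeR, where 19.3% of all genes passed in either direction. Atoh8, a transcription factor, was at 23.4 CPM with calcifediol, 21.6 with calcitriol, 7.61 with olanzapine alone and 9.35 with vehicle, and edgeR gave 1.38 ± 0.15 (SE; adjusted p = 0.00187). Hey1, a Notch and BMP target, gave 1.07 ± 0.18 (SE; adjusted p = 0.00853). Runx2, the osteoblast regulator, was at 13.7 CPM with calcifediol, 15.8 with calcitriol, 33.2 with olanzapine alone and 35.1 with vehicle, with -1.24 ± 0.12 (SE; adjusted p = 0.0015), and Dlx3 gave -0.83 ± 0.13 (SE; adjusted p = 0.00722). The fifth, Msx1, did not pass.

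Among 11 genes of ligand latency and activation, 3 rose and 5 fell, against 9.03% and 10.3% of all genes. The proteoglycan Fmod, fibromodulin, was at 2.69 CPM with calcifediol, 9.89 with calcitriol, 75.6 with olanzapine alone and 76.8 with vehicle, and edgeR gave -3.61 ± 0.44 (SE; adjusted p = 0.00306). Thbs1, thrombospondin 1, which can activate latent TGF-beta, was at 278 CPM with calcifediol, 391 with calcitriol, 860.3 with olanzapine alone and 990.2 with vehicle, with -1.49 ± 0.17 (SE; adjusted p = 0.00255). Of 6 other receptors and coreceptors 3 rose, against 9.03% of all genes. Eng, the coreceptor endoglin that works with Acvrl1, was at 12.2 CPM with calcifediol, 17.2 with calcitriol, 6.49 with olanzapine alone and 7.23 with vehicle, with 1.07 ± 0.20 (SE; adjusted p = 0.0139). The shares of intracellular regulators (15.4%) and other antagonists (14.3%) that passed were near the 19.3% of all genes. Of 13 intracellular regulators 1 rose and 1 fell, the lower one being Ldlrad4, at -1.22 ± 0.14 (SE; adjusted p = 0.0025). Of 7 other antagonists 1 rose, and of 3 other ligands 1 fell, Bmp8a, with 4 counts with calcifediol, 15 with calcitriol, 34 with olanzapine alone and 49 with vehicle.

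Several members overlap other annotated genes on GRCm38.p6, and whether the counting used strand is not given in the sources used here, so part of their counts could belong to a partner. These include Bmp4 (Gm15217 and Gm15222), Inhba (B230303A05Rik), Fstl3 (Prss57), Smad3 (Gm51710), Bmp1 (Gm52136), Tgfbr2 (Gm31292) and Ltbp2 (D030025P21Rik). Id2, Id3, Bmpr1b, Acvrl1, Inha, Gdf5 and Gdf6 overlap no annotated gene. With 1 library per condition, none of the ratios has a replicate check.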

How the data were processed

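RNA of 12 mouse cultures, 3 cell types under 4 treatments with 1 library each, was sequenced by DNBseq. After SOAPnuke filtering, the authors aligned to GRCm38.p6 (HISAT 2.0.4, Bowtie 2 version 2.2.5) and estimated gene expression by RSEM 1.2.8. Whether counting used strand is not given in the sources used here. The deposited expected counts, not scaled between libraries, were rounded to whole numbers before use. The deposited FPKM values, which correct for gene length and library size, were divided by their library total to give TPM. The deposited TPM (12 columns) were not used, because 2 of them share a name in the C2C12 table.

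Libraries held 15641434 to 19348338 counts and were scaled to these totals, with a pseudocount of 0.5 counts. Genes reaching 1 TPM in at least 1 library of the cell type were tested (10963, 11804 and 12124 genes in hepatocytes, adipocytes and C2C12 cells). The 9 comparisons used the two-sided Audic-Claverie test with Benjamini-Hochberg adjustment and the study's thresholds (FC of at least 2, FDR of at most 0.05), with exact Clopper-Pearson 95% intervals of the ratio. The 2 libraries with vitamin D were set against the 2 without by edgeR 4.0.16 (quasi-likelihood, TMM factors, adjusted p of at most 0.05) in R 4.3.3, with DESeq2 1.42.0 and limma 3.58.1 as alternatives. Scripts ran in Python 3.11.15 and were tested on simulated data.

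Members and gene lists were chosen with earlier results of these data known. Values in every library are given for members called in any comparison or by edgeR and for the member with the highest TPM of each role and cell type. From each list of other pathway genes, up to 4 called genes with the largest log2 ratio were eligible to be named, and other names (Col1a1, Col1a2, Col3a1, Lox, Timp1, Msx1 and Dlx3 among them) were chosen after their values were seen. Alternatives covered scaling, pseudocount, filter, reference library, test and leaving out each library. No sample was left out.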

Additional observations from a re-analysis of the deposited data

Results flagged for a closer look

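Fst, the activin-binding follistatin, differed in direction between cell types with olanzapine and calcifediol against olanzapine alone. In C2C12 cells its log2 ratio was -1.54, with 356 counts with calcifediol and 1058 with olanzapine alone. In adipocytes the log2 ratio was 0.29 (exact 95% counting interval 0.10 to 0.49), with 476 counts with calcifediol and 382 with olanzapine alone. The difference between the cell types was not tested, since each condition had 1 library.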

How the results depend on the processing

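With 1 library per condition, precision is limited to counting error, and low counts (Acvrl1, Bmpr1b, Gdf6, Nog and Grem1) give wide intervals. Of the summary counts, 201 stayed within 1.5 times their main value and 15 did not. Without the filter 1 hepatocyte member (Id1, 0 counts with calcifediol and 7 with olanzapine alone) was called lower with calcifediol. Scaling to Rplp0, which moved the median of all genes by 0.38 (olanzapine), -0.37 (calcifediol) and -0.20 (calcitriol) on the log2 scale in adipocytes and by 0.17 in C2C12 cells with calcitriol, gave 1 adipocyte member lower with calcitriol. In C2C12 cells a filter of TPM of at least 10 left 4 members lower with calcifediol and 4 with calcitriol. For these settings the share of all genes called was not counted, so the counts are not read as a result about the members. For vitamin D in C2C12 cells, limma gave 4 members higher and 7 lower of 39, against 639 and 688 of all 12124 genes. There olanzapine as a term gave 2 members higher and 3 lower, against 311 and 343 of all genes. Leaving out each library in turn gave 2 to 12 higher and 4 to 17 lower in C2C12 cells, and 0 to 1 higher in adipocytes (Ltbp2, without the olanzapine or the calcifediol library). The causes were not tested. In C2C12 cells the numbers over all genes fell and rose with the same libraries left out. These fits leave 1 library on a side, so their counts are not read as a result about the members. Among single genes, 318 values kept their direction and side of the threshold, 40 lost the threshold, and none turned round. Fstl3 with calcifediol was at -0.99 against vehicle, and Id1 with calcitriol at -0.97 with Rplp0. No paired analysis was possible because each condition had 1 library.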
